A study of Homo sapiens with 12 samples.

Results

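Young IMR-90 cells grown at 3% oxygen were compared with young IMR-90 cells grown at 20% oxygen, with 3 Affymetrix arrays in each group, 6 of the 12 arrays of the series. IMR-90 is an established line of human lung fibroblasts that divides a limited number of times in culture. Both young groups were collected at population doubling 30, from cells bought at population doubling 27, grown as monolayers to 80% confluency in DMEM with 10% serum. The remaining 6 arrays held cells that had reached senescence at 20% oxygen (population doubling 48) and old, still nonsenescent cells kept at 3% (population doubling 53). Each oxygen level had its own incubator, the 3% incubator being held low with nitrogen, so oxygen and incubator cannot be told apart. The labels call the replicates biological and say no more of their origin, so the p-values measure the spread between these arrays. All 19775 genes named by a probe set were described, each as the mean of the probe sets that name it alone.

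Cells sense oxygen through prolyl hydroxylases that mark the alpha subunits of the hypoxia-inducible factors (HIF) for destruction by the VHL ubiquitin ligase. When oxygen falls, HIF alpha pairs with ARNT and binds DNA at short hypoxia response elements, and genes for glucose uptake, glycolysis, angiogenesis and mitochondrial turnover are known targets. Room air holds more oxygen than most tissues offer their cells, and fibroblast cultures in it accumulate oxidative damage and stop dividing sooner. Because the alpha subunits are controlled mainly as proteins, their mRNA is known to say little of their activity.

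Values below are log2 signals centred on each probe set's median across the series, so 0 stands for that median and a difference of 1 is a 2-fold change, while absolute levels, and which markers are present at all, cannot be read. Differences are young 3% minus young 20% oxygen unless another pair is named, ± gives the standard error of a log2 difference with n = 3 arrays per group, and a gene is called when its adjusted p, from limma over all genes, is under 0.05. Array medians lay between -0.02 and 0.05. A sign of RNA quality, how far the ACTB control read higher at its 3′ than at its 5′ end, was 0.71 on young 3% replicate 2 and between -0.22 and 0.35 on the other 11 arrays. A gene's mean can hide probe sets that disagree: of 81 named and called genes with several probe sets, 34 had at least 1 that was not called by itself. In RNA from whole cultures, fewer cells expressing a gene and less of its RNA per cell cannot be told apart.

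Growth at 3% oxygen changed 2333 genes, 11.8% of those tested, of which 980 (4.96%) were higher and 1353 (6.84%) lower than at 20%. A difference of at least 2-fold was reached by 239 of the higher and 220 of the lower genes, and the median over all genes was -0.03. Of the 2333, 2325 had values that did not overlap between the groups, which held for 29.7% of all genes. The count fell to between 1626 and 2089 when each of the 6 young arrays was left out in turn, and was 2004 (980 higher, 1024 lower) without young 3% replicate 2. Among 11721 probe sets that name no gene, 275 (2.35%) were called, 112 higher and 163 lower.

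The largest rise was that of LINC01116, a long noncoding RNA. It read -2.62, -2.23 and -2.06 on the young 20% arrays and 2.30, 2.06 and 2.28 on the young 3% arrays, a 22.9-fold rise (log2 4.52 ± 0.14, adjusted p = 4.97e-09). Mitotic genes held many of the next places. NUF2 and NDC80, subunits of the outer kinetochore complex that grips microtubules, rose 7.53-fold and 6.42-fold. KIF20A, a kinesin of cytokinesis, rose 7.45-fold, and PRC1, which bundles microtubules of the midzone, 6.10-fold. CDKN3, a phosphatase acting on cyclin-dependent kinases (2.74 ± 0.14), TPX2, an activator of Aurora A (2.55 ± 0.16), PTTG1, the securin that restrains separase (2.46 ± 0.11), SPC25 (2.40 ± 0.20), CKAP2L (2.61 ± 0.15) and the kinase gene PBK (2.51 ± 0.16) belong to the same top 20. So do HMMR, BUB1B and DLGAP5, mitotic genes described below. The others were of different kinds. They were the HIF targets DDIT4 and NDRG1, the serpin SERPINB7 (2.57 ± 0.14), the activin subunit gene INHBE (2.54 ± 0.14), GGH, which trims folate polyglutamates (2.45 ± 0.09), and MYCT1 (2.39 ± 0.10, with its 2 probe sets at 1.19 and 3.59).

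The largest falls included many genes of secreted and surface proteins. CYTL1, a small secreted cytokine-like protein, read 3.47, 3.32 and 3.52 at 20% and -0.43, -0.65 and -0.78 at 3% oxygen, a 16.6-fold fall (-4.05 ± 0.16, adjusted p = 2.55e-08). The long pentraxin PTX3, a soluble pattern-recognition protein, fell 11.4-fold, and VCAM1, an adhesion molecule for leukocytes, 10.5-fold. RARRES2, which encodes the chemoattractant chemerin, fell 10.1-fold, TMEM176A, a membrane protein gene, 9.78-fold, and SERPINF1, the antiangiogenic factor PEDF, 9.01-fold. Further falls were those of the death receptor TNFRSF21 (-3.12 ± 0.15), the epithelial-type cytokine TSLP (-3.04 ± 0.15), the ion channel TRPA1 (-2.94 ± 0.13), osteoprotegerin TNFRSF11B (-2.86 ± 0.14), the protease ADAMTS8 (-2.77 ± 0.21, with its 3 probe sets between -4.98 and -1.02) and the keratin-associated protein KRTAP1-5 (-2.93 ± 0.21). In none of the 40 genes did the 3 arrays of the young groups overlap, which the rule for choosing them required.

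**Figure D1:**
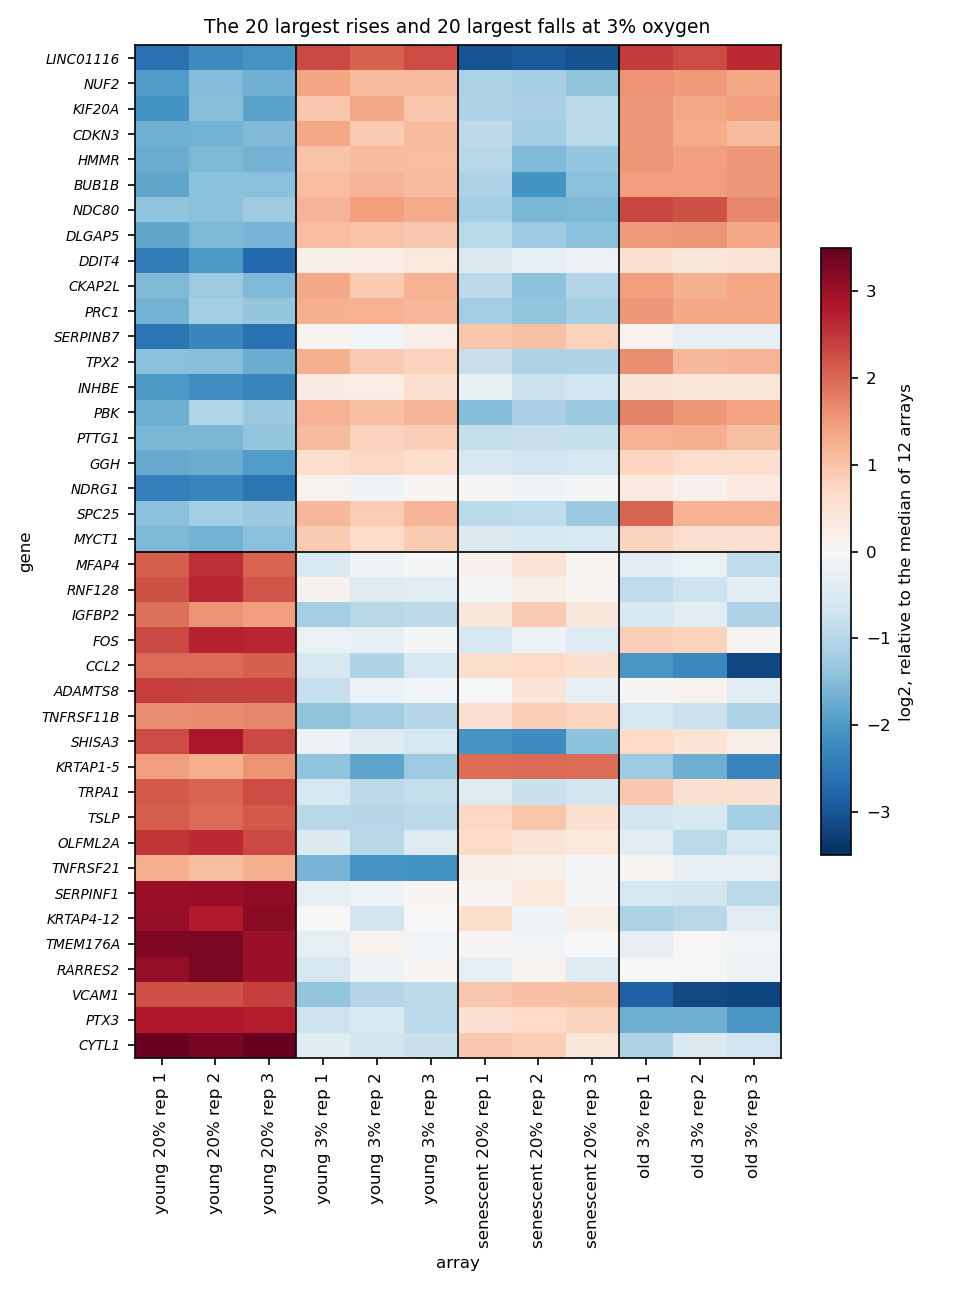
Values of the 20 genes with the largest rises and the 20 with the largest falls at 3% oxygen (rows) on the 12 arrays (columns, 3 per group), as log2 relative to the median of the 12 arrays, with red above and blue below it. Over the 12 arrays LINC01116 at the top runs from -3.04 on senescent 20% replicate 3 to 2.62 on old 3% replicate 3, and CYTL1 at the bottom from -1.09 on old 3% replicate 1 to 3.52 on young 20% replicate 3.

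Most of the listed cell-cycle genes were higher at 3% oxygen. Over 6 lists that hold 189 measured genes (cyclins, E2F and DREAM regulators, DNA replication, mitosis, recombination, and nuclear lamina and Polycomb chromatin), 134 were higher and 4 lower. Of 59 measured mitosis genes 53 were called higher and 0 lower, with a median of 1.75 against -0.03 over all genes. HMMR, a spindle protein, read -1.74, -1.57 and -1.66 at 20% and 1.00, 1.10 and 1.07 at 3% oxygen (2.71 ± 0.13, adjusted p = 4.29e-08). BUB1B, the checkpoint kinase BubR1, read -1.81, -1.43 and -1.45 against 1.07, 1.19 and 1.12 (2.69 ± 0.20), and DLGAP5, which stabilises kinetochore microtubules, -1.83, -1.56 and -1.63 against 1.08, 0.99 and 0.93 (2.67 ± 0.13). In each of these genes all 3 arrays at 3% lay more than 2 log2 units above all 3 at 20%. The proliferation marker MKI67 rose by 1.64 ± 0.14 and topoisomerase TOP2A by 2.02 ± 0.13.

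Mitotic genes are known to be held down outside G2 and M phase by the DREAM complex, which binds a cell-cycle homology region (CHR), TTTGAA or TTCGAA, near the start of transcription. The 250 bases before the most upstream RefSeq start (GRCh38.p14) of these 3 genes are shown because they are among the largest rises and each holds the CHR letters, searched on both strands and printed in capitals. HMMR lies at chr5:163460382-163460631 on the plus strand, BUB1B at chr15:40160819-40161068 on the plus strand and DLGAP5 at chr14:55191586-55191835 on the minus strand. The match nearest the start began 22, 23 and 109 bases before it.
HMMR: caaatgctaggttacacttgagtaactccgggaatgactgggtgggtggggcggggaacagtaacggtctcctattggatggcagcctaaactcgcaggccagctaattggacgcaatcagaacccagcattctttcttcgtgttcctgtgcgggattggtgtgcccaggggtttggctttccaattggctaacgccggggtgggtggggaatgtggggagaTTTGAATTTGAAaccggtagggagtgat
BUB1B: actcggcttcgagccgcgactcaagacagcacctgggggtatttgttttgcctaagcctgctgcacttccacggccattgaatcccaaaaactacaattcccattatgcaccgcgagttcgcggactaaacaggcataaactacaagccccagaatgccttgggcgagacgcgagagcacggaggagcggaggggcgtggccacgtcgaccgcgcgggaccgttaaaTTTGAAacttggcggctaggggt
DLGAP5: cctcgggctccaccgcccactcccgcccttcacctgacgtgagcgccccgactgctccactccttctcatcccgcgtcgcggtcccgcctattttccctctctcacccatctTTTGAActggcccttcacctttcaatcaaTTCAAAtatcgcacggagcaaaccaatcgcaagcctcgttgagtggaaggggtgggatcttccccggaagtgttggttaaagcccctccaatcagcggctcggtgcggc
CHR letters stood in the same window of 22 of the 44 higher mitosis genes with a promoter in the table (50%), in 26 of all 49 measured ones (53.1%), in 11.8% of 15384 measured genes with a promoter and in 14.6% of 27305 promoters. A match describes the letters and is not a measured binding site.

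Ahead of mitosis, 35 of 47 DNA replication genes were higher and 0 lower (median 0.87). POLE2, a subunit of the leading-strand polymerase, rose by 2.02 ± 0.20, the ribonucleotide reductase subunit RRM2 by 1.87 ± 0.12, geminin GMNN, which blocks relicensing of origins, by 1.70 ± 0.10, and thymidylate synthase TYMS by 1.46 ± 0.13. Among 17 cyclins and cyclin-dependent kinases 10 rose and 2 fell. CCNB1, the mitotic cyclin B1, read -1.32, -0.94 and -1.18 at 20% and 1.01, 0.97 and 0.89 at 3% oxygen (2.11 ± 0.11, adjusted p = 1.15e-07). CCNA2 rose by 1.96 ± 0.12, its partner kinase CDK1 by 1.91 ± 0.13 and the CDK-binding CKS1B by 2.00 ± 0.12. CCND2, a G1 cyclin, went the other way, from 0.82, 0.53 and 1.24 to -0.81, -0.61 and -0.54 (-1.51 ± 0.15). FOXM1, the transcription factor of the G2 and M programme, rose by 2.31 ± 0.22 and E2F1 by 1.02 ± 0.12, while E2F3 (-0.79 ± 0.16) and the repressor E2F6 (-0.63 ± 0.13) fell; in all 9 of 19 E2F and DREAM regulators rose and 2 fell.

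Of 21 genes of recombination and Fanconi repair 13 rose and 0 fell, among them RAD51AP1 (2.19 ± 0.13), the nuclease EXO1 (1.90 ± 0.15), the Fanconi ubiquitin-conjugating enzyme UBE2T (1.90 ± 0.14) and the BLM helicase (1.27 ± 0.20). In the list of lamina, HMG and Polycomb chromatin genes 14 of 26 rose and 0 fell. Lamin B1, LMNB1, whose loss is a widely used sign of senescence, read -0.89, -0.87 and -0.72 at 20% and 0.72, 0.87 and 1.08 at 3% oxygen (1.72 ± 0.12, adjusted p = 1.04e-06). EZH2, the Polycomb methyltransferase, rose by 1.48 ± 0.13 and the remodelling helicase HELLS by 1.25 ± 0.11.

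The inhibitors of the cycle moved less evenly. CDKN1A (p21) was not called in the young cells (-0.27 ± 0.11, adjusted p = 0.152). CDKN2B (p15) fell by 1.16 ± 0.10 on the log2 scale, from 0.76, 0.71 and 0.73 to -0.31, -0.55 and -0.44, with 1 of its 2 probe sets at -2.19 and the other at -0.13. CDKN2A was 0.12, 0.15 and 0.22 at 20% and -0.53, -0.40 and -0.20 at 3% oxygen (-0.54 ± 0.13, adjusted p = 0.0157), a call lost without young 20% replicate 3 or young 3% replicate 1 (adjusted p up to 0.0649). In the list of 7 inhibitors 2 rose and 2 fell, and 2 were called without young 20% replicate 3. The larger of these rises was that of CDKN3, the phosphatase described above among the largest rises (2.74 ± 0.14). Of 25 p53 targets 2 rose and 8 fell, and 5 were called without either young 20% replicate 1 or young 20% replicate 3. The largest rise was that of DDB2, which recognises ultraviolet lesions (1.36 ± 0.18), and the falls included ZMAT3 (-0.84 ± 0.11), the kinase PLK2 (-0.76 ± 0.08) and the stress gene GADD45A (-0.65 ± 0.08).

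**Figure D2:**
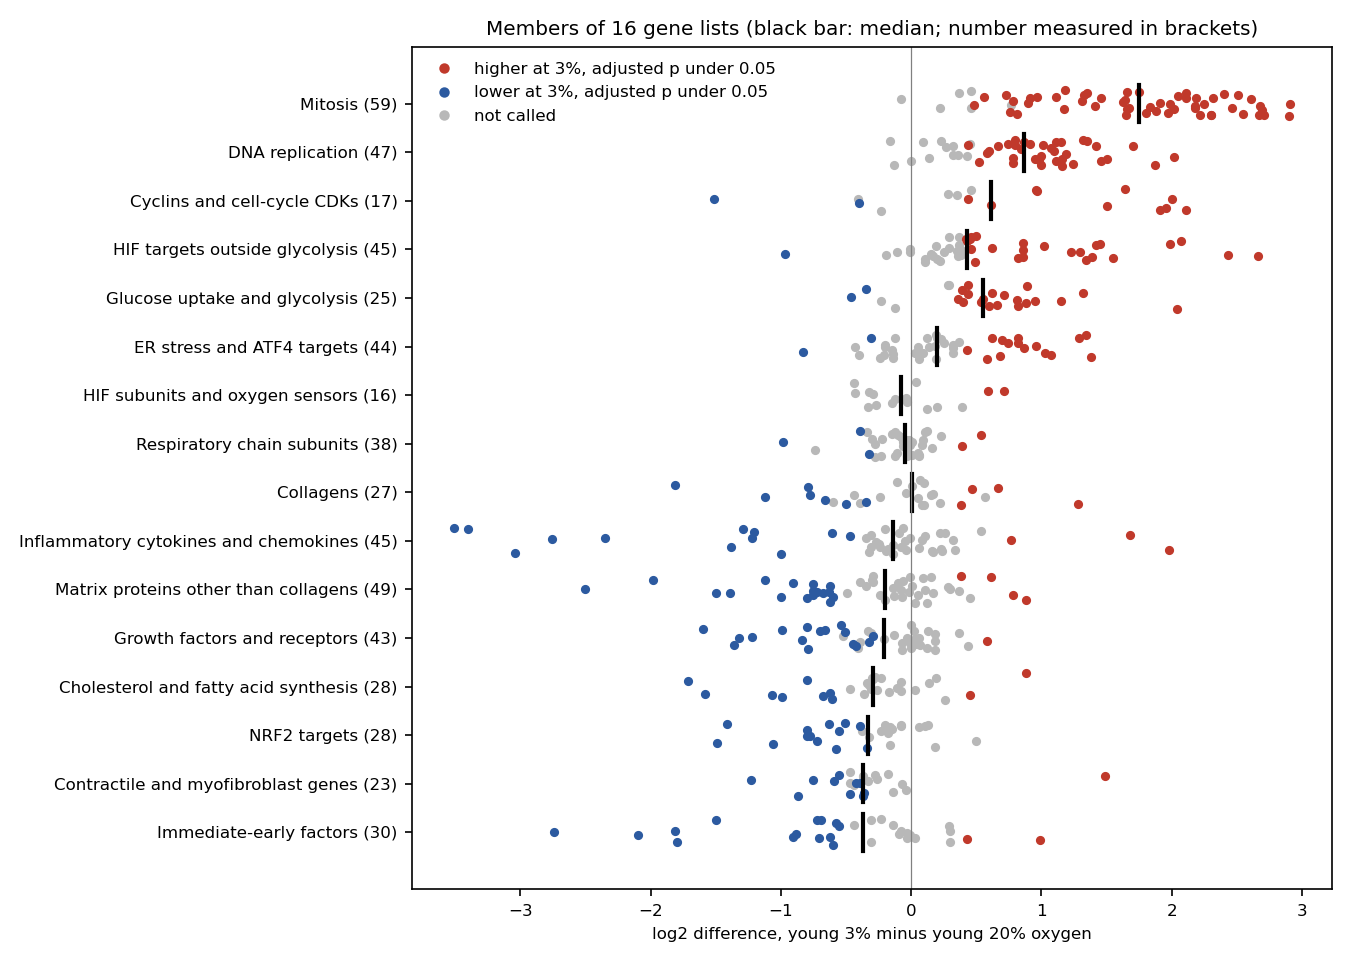
Members of 16 gene lists by their log2 difference, young 3% minus young 20% oxygen (horizontal axis), 1 point per measured gene, red where called higher, blue where called lower and grey where not called, with the list median as a black bar. The mitosis list lies furthest to the right with a median of 1.75, and the lists of contractile and immediate-early genes furthest to the left, both with a median of -0.37.

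The parts of the oxygen-sensing machinery themselves were called at the RNA level about as often as all genes. Of 16 HIF subunits, hydroxylases and their regulators, 2 were called higher and 0 lower (median -0.08), 12.5% against 11.8% of all genes. The young groups did not overlap in 10 of the 16, against 29.7% of all genes. HIF1A (-0.29 ± 0.09, adjusted p = 0.0539), EPAS1, the gene of HIF-2 alpha (-0.32 ± 0.10, adjusted p = 0.0587), ARNT (-0.04 ± 0.08) and VHL (-0.15 ± 0.20) were not called. Without young 3% replicate 2, 4 were called, HIF1A and EPAS1 among them as lower. The prolyl hydroxylase EGLN1, itself a HIF target, rose by 0.71 ± 0.14, though its 4 probe sets ranged from -0.40 to 1.74. SIAH2, a ubiquitin ligase that degrades prolyl hydroxylases, rose by 0.59 ± 0.13, while the hydroxylases EGLN2 (-0.43 ± 0.27) and EGLN3 (0.39 ± 0.15) were not called.

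Known HIF targets and glycolytic genes held many rises at 3% oxygen. Outside glycolysis, 24 of 45 measured HIF targets rose and 1 fell, with a median of 0.43. DDIT4 (REDD1), an inhibitor of mTOR complex 1, read -2.42, -2.01 and -2.73 at 20% and 0.20, 0.26 and 0.36 at 3% oxygen, a 6.32-fold rise (2.66 ± 0.15, adjusted p = 1.80e-07). NDRG1, a stress-responsive differentiation gene, rose from -2.40, -2.32 and -2.53 to 0.12, -0.14 and 0.08 (2.43 ± 0.10), and BNIP3, a receptor for the autophagic removal of mitochondria, from -1.79, -2.06 and -2.03 to 0.14, 0.19 and 0.02 (2.07 ± 0.10). In all 3 genes every array at 3% lay above every array at 20% oxygen. MXI1, an antagonist of MYC (1.99 ± 0.09), the lipid droplet protein HILPDA (1.45 ± 0.16), the lipoprotein receptor VLDLR (1.34 ± 0.15) and the DNA demethylase TET1 (1.55 ± 0.18) rose too. VEGFA, the angiogenic factor most often used as a hypoxia marker, read -0.31, -0.32 and -0.12 at 20% and 0.14, -0.01 and 0.23 at 3% and was not called (0.37 ± 0.11, adjusted p = 0.0599), although it was called higher under both other scalings of the arrays. Heme oxygenase HMOX1 was not called (0.06 ± 0.10).

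Of 25 genes for glucose uptake and glycolysis 19 rose and 2 fell (median 0.55). The neuronal-type enolase ENO2 read -1.90, -1.94 and -2.04 at 20% and -0.18, 0.29 and 0.13 at 3% oxygen, a 4.12-fold rise (2.04 ± 0.11, adjusted p = 1.37e-07). SLC2A1, the glucose transporter GLUT1, rose from -1.22, -1.29 and -1.16 to 0.23, 0.00 and 0.07 (1.32 ± 0.10), and phosphoglycerate kinase PGK1 from -1.08, -1.08 and -1.14 to 0.06, 0.12 and -0.03 (1.15 ± 0.08, with 6 probe sets between 0.93 and 1.24). All 3 enzymes or carriers kept the groups apart by at least 1 log2 unit. PDK1, which keeps pyruvate out of the mitochondria, rose by 0.95 ± 0.15, phosphoglucomutase PGM1 by 0.88 ± 0.10 and lactate dehydrogenase LDHA by 0.44 ± 0.08. The respiratory chain gave 2 rises and 3 falls among 38 measured nuclear-encoded subunits (median -0.05), 13.2% called against 11.8% of all genes. Calls among them numbered 2 without young 20% replicate 1 or replicate 3 and 3 without young 20% replicate 2 or young 3% replicate 2. COX7B, of cytochrome c oxidase, fell by 0.98 ± 0.11 on the log2 scale, but its 2 probe sets read -1.94 and -0.02.

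HIF is known to bind the core letters ACGTG or GCGTG. The windows of 250 bases before the most upstream RefSeq start (GRCh38.p14) are shown for 3 of the largest rises among these genes, picked because they hold the core, with the core on either strand in capitals. A CACGTG holds a match on each strand, which overlap. DDIT4 lies at chr10:72273674-72273923 on the plus strand with 3 matches, BNIP3 at chr10:131981924-131982173 on the minus strand with 6, and ENO2 at chr12:6914330-6914579 on the plus strand with 1. The match nearest the start began 53, 104 and 118 bases before it.
DDIT4: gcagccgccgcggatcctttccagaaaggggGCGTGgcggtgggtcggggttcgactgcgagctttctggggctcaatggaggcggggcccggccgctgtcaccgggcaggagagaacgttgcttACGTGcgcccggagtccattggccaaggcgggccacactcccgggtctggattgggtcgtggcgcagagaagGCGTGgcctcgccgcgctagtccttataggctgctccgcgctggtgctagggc
BNIP3: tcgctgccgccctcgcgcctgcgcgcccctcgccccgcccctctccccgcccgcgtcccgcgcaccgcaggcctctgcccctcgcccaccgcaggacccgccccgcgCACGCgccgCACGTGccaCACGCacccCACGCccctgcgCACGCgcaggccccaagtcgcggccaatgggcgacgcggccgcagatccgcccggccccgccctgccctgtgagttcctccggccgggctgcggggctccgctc
ENO2: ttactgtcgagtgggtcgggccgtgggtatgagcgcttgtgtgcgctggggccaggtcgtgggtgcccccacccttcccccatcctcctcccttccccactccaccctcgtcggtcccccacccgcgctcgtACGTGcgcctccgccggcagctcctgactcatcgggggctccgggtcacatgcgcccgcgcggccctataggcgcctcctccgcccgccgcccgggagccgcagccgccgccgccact
No core stood in the windows of MXI1, TET1 and SLC2A1, which rose too. The core stood in 24 of the 37 higher HIF and glycolysis genes with a promoter in the table (64.9%), in 42 of 58 measured ones (72.4%), in 50.8% of 15384 measured genes and in 43.1% of 27305 promoters. A motif this short is common, and a match is a description of the letters alone.

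**Figure D3:**
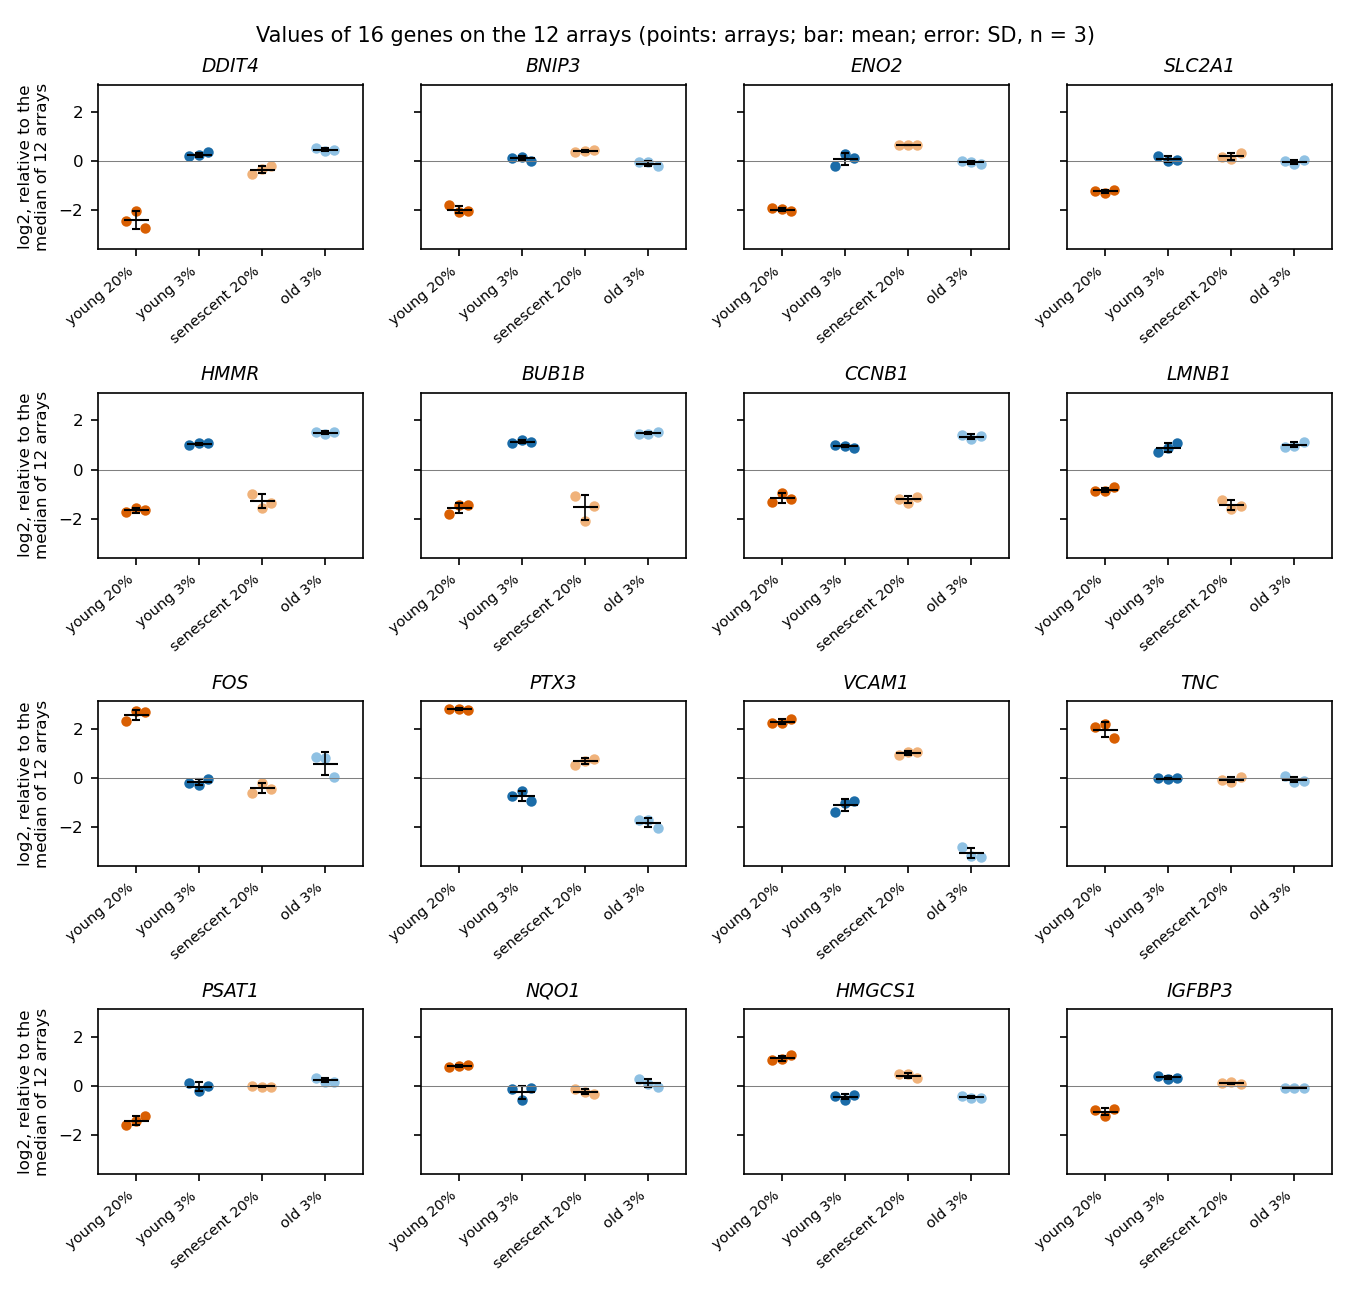
Values of 16 genes (panels) on the 12 arrays as log2 relative to the median of the 12 arrays (vertical axis, shared), with 1 point per array, a black bar for the mean of 3 and error bars of 1 SD. DDIT4, BNIP3, ENO2 and SLC2A1 are low on the young 20% arrays alone, whereas HMMR, BUB1B, CCNB1 and LMNB1 are low in both groups at 20% oxygen.

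Of 44 genes of ER stress and of the stress factor ATF4, 15 rose at 3% oxygen, 2 fell and 27 were not called (median 0.20). PSAT1, the phosphoserine aminotransferase, read -1.59, -1.41 and -1.21 at 20% and 0.12, -0.22 and 0.01 at 3% oxygen (1.38 ± 0.12, adjusted p = 4.91e-06). PHGDH, the enzyme that opens serine synthesis, rose by 1.29 ± 0.10, the mitochondrial serine hydroxymethyltransferase SHMT2 by 1.07 ± 0.11, the amino acid transporter SLC7A5 by 0.96 ± 0.09 and the ATF4 partner CEBPG by 1.03 ± 0.16. Against these, the ER chaperone DNAJB9, a target of the IRE1 branch, fell by 0.83 ± 0.11. Of 26 heat shock chaperones 2 rose, including HSP90B1 of the ER (0.61 ± 0.11), and 5 fell, including the disaggregase partner HSPH1 (-0.88 ± 0.11) and HSPA2 (-0.82 ± 0.10).

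Collagen genes and the enzymes that modify collagen did not move together. Of 20 collagen hydroxylases and crosslinkers 6 rose and 0 fell. Lysyl oxidase LOX, which starts the crosslinks, read -1.14, -1.25 and -1.03 at 20% and 0.24, -0.12 and 0.17 at 3% oxygen (1.23 ± 0.11, adjusted p = 9.67e-06). The lysyl hydroxylase PLOD1 (0.97 ± 0.17) and the prolyl 4-hydroxylase P4HA2 (0.58 ± 0.08) rose as well. The call of P4HA1 (0.44 ± 0.11, adjusted p = 0.0175) did not hold without young 20% replicate 1, young 20% replicate 2 or young 3% replicate 1. Of 27 collagens 4 rose and 7 fell, and 7 and 6 were called without young 20% replicate 1 and replicate 3. The fibrillar COL1A1 (0.05 ± 0.10) and COL3A1 (0.01 ± 0.12) were not called, COL11A1 rose by 1.28 ± 0.23 and the basement membrane collagen COL4A1 by 0.67 ± 0.10, and COL15A1 fell by 1.12 ± 0.11.

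Binding proteins of insulin-like growth factors split. IGFBP3, a HIF target in many cells, rose from -0.99, -1.20 and -0.92 to 0.43, 0.29 and 0.34 (1.39 ± 0.09, adjusted p = 5.75e-07), and IGFBP6 by 0.70 ± 0.09. IGFBP2 fell from 1.93, 1.56 and 1.47 to -1.20, -0.96 and -0.91 (-2.67 ± 0.19), IGFBP5 by 1.32 ± 0.14 and IGFBP4 by 0.73 ± 0.11. In the whole list of 19 genes 6 rose and 3 fell (47.4% called, against 11.8% of all genes). The young groups did not overlap in 11 of the 19, against 29.7% of all genes.

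Of 30 early response genes, which growth factors and stress induce within minutes, 14 fell at 3% oxygen, 2 rose and 14 were not called (median -0.37). FOS, a subunit of AP-1, read 2.32, 2.70 and 2.66 at 20% and -0.23, -0.28 and -0.03 at 3% oxygen, a 6.68-fold fall (-2.74 ± 0.20, adjusted p = 1.37e-06). EGR3 fell by 2.10 ± 0.24, the mRNA-destabilising ZFP36 by 1.81 ± 0.19, the ERK phosphatase DUSP6 by 1.80 ± 0.09, FOSB by 1.50 ± 0.18 and EGR1 by 0.58 ± 0.09 on the log2 scale. The orphan receptor NR4A2 rose by 0.99 ± 0.16, and MYC was not called (-0.31 ± 0.15).

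Of 45 measured inflammatory mediators 12 fell, 3 rose and 30 were not called (median -0.14). PTX3 read 2.79, 2.81 and 2.74 at 20% and -0.73, -0.54 and -0.93 at 3% oxygen (-3.51 ± 0.12, adjusted p = 1.24e-08), and CCL2, the monocyte chemokine MCP-1, 1.99, 1.97 and 2.09 against -0.55, -1.08 and -0.59 (-2.76 ± 0.24). LIF, an IL6-family cytokine, fell by 2.35 ± 0.10 and the neutrophil chemokine CXCL8 by 1.22 ± 0.11. PTGS2, the inducible cyclooxygenase, rose from -0.93, -1.01 and -1.17 to 1.11, 0.83 and 0.90 (1.98 ± 0.19). IL6 itself was not called (-0.25 ± 0.12, adjusted p = 0.253). Of 37 interferon response genes 2 rose and 4 fell, 16.2% called against 11.8% of all genes. Among the falls 3 were the neighbouring antiviral membrane proteins IFITM1 (-2.15 ± 0.15), IFITM2 (-0.92 ± 0.12) and IFITM3 (-0.71 ± 0.10), whose near-identical sequences can share probes.

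Of 28 NRF2 targets, genes of the antioxidant response, 13 fell at 3% oxygen, 0 rose and 15 were not called (median -0.33). NQO1, a quinone reductase, read 0.76, 0.80 and 0.86 at 20% and -0.12, -0.56 and -0.08 at 3% oxygen (-1.06 ± 0.13, adjusted p = 0.00015). Epoxide hydrolase EPHX1 fell by 1.49 ± 0.13, sulfiredoxin SRXN1 by 0.78 ± 0.11 and the glutathione transferase GSTM1, whose near copies may share its probe sets, by 0.80 ± 0.12. AKR1C2 (-1.41 ± 0.12) and AKR1C1 (-0.80 ± 0.09) fell on average, but the probe sets of these near-identical genes ran from -2.18 to 0.10 and from -2.69 to 0.00. Among 22 enzymes of superoxide and peroxide removal 1 rose and 2 fell (13.6% called, against 11.8% of all genes), and 1 was called without young 20% replicate 1 or replicate 3. The mitochondrial superoxide dismutase SOD2 fell by 1.00 ± 0.09, while SOD1 (0.14 ± 0.10) and catalase CAT (0.02 ± 0.12) were not called. Of 7 metallothioneins 0 were called by limma, and without young 3% replicate 2, 3 were called higher.

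Of 28 genes of cholesterol and fatty acid synthesis 8 fell, 2 rose and 18 were not called (median -0.29). HMGCS1, the synthase ahead of HMG-CoA reductase, read 1.07, 1.09 and 1.26 at 20% and -0.42, -0.55 and -0.35 at 3% oxygen (-1.58 ± 0.09, adjusted p = 3.02e-07). The sterol methyl oxidase MSMO1 fell by 1.71 ± 0.11, the demethylating enzyme NSDHL by 1.07 ± 0.11 and INSIG1, the sterol-regulated brake on SREBP, by 0.99 ± 0.08, while the exporter ABCG1 rose by 0.88 ± 0.09 (4 probe sets from 0.17 to 2.63). Demethylation of lanosterol is known to use several molecules of oxygen per sterol. Of 41 lysosomal genes 8 fell and 2 rose, with cathepsin CTSC at -1.33 ± 0.10 and CTSO at -1.65 ± 0.20.

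Among matrix proteins other than collagens 17 of 49 fell and 4 rose. Tenascin C, TNC, a glycoprotein of wounds and stiff matrix, read 2.07, 2.20 and 1.60 at 20% and -0.01, -0.06 and 0.00 at 3% oxygen (-1.98 ± 0.14, adjusted p = 9.55e-07). The elastic fibre protein MFAP4 fell by 2.50 ± 0.20, the small proteoglycans LUM and DCN by 1.50 ± 0.10 and 1.39 ± 0.10, and periostin POSTN by 1.12 ± 0.10. MFAP5, a component of microfibrils, rose by 0.78 ± 0.11. In the list of proteases and inhibitors 11 of 36 fell and 1 rose, among them ADAMTS1 (-2.15 ± 0.13), urokinase PLAU (-1.81 ± 0.15), collagenase MMP1 (-0.91 ± 0.12) and the inhibitor TIMP1 (-0.88 ± 0.09).

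Of 23 contractile genes 10 fell and 1 rose (47.8% called, against 11.8% of all genes), with a median of -0.37. A negative difference was found in 22 of the 23 and in 11027 of all 19775 genes. Leiomodin LMOD1 fell by 1.23 ± 0.16 and the myosin kinase MYLK by 0.87 ± 0.09, with MYLK probe sets from -1.79 to -0.09. Tropomyosin TPM2 fell by 0.59 ± 0.09, with probe sets from -1.48 to -0.19 of which only the lowest was called by itself. MYOCD, the coactivator of smooth muscle genes, rose by 1.49 ± 0.14. The myofibroblast marker ACTA2 stood at -0.39 ± 0.11 (adjusted p = 0.0429), a call lost without any of 5 of the 6 young arrays (all but young 20% replicate 1; adjusted p up to 0.182). Without young 20% replicate 2, young 20% replicate 3 or young 3% replicate 2, 7 members in place of 11 were called.

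Signals between cells changed gene by gene. Of 22 TGF-beta targets 4 rose and 7 fell, with PMEPA1 at -1.04 ± 0.16. Among 28 TGF-beta and BMP ligands, receptors and antagonists 5 rose and 4 fell: INHBE, the BMP antagonist NOG (1.71 ± 0.21), INHBB (1.18 ± 0.19) and follistatin FST (1.09 ± 0.10) were higher and BMP2 (-1.50 ± 0.13) and the antagonist NBL1 (-1.46 ± 0.13) lower. Of 33 Wnt genes 0 rose and 7 fell, led by WNT2, which read 1.29, 1.19 and 0.78 at 20% and -0.68, -1.04 and -1.12 at 3% oxygen (-2.03 ± 0.19). Without young 20% replicate 2 or replicate 3 the Wnt count was 4. Growth factors and their receptors gave 16 falls and 1 rise among 43, including PDGFD (-1.60 ± 0.11, 2 probe sets from -2.80 to -0.39), HBEGF (-1.36 ± 0.09, 4 probe sets from -2.72 to -0.02), endothelin EDN1 (-1.22 ± 0.17) and HGF (-0.99 ± 0.10). Notch pathway genes gave 3 falls among 21 (14.3% called, against 11.8% of all genes), with the ligand JAG1 at -0.54 ± 0.08.

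Of 25 clustered histone genes 5 fell and 1 rose: H2BC12 (-1.80 ± 0.21) and H2BC21 (-1.52 ± 0.17) were lower, and H3C3 rose by 2.16 ± 0.38. Of 16 telomere genes 1 rose and 2 fell, and between 0 and 1 were called without any of 5 of the 6 young arrays (all but young 3% replicate 2); TERT stood at 0.05 ± 0.15, not called. Of 21 sirtuins and ageing regulators 3 rose and 2 fell, led by the nicotinamide methyltransferase NNMT (0.96 ± 0.13), with SIRT1 not called (-0.17 ± 0.12); 2 were called without young 20% replicate 1 or replicate 3 and 3 without young 3% replicate 2. Among 13 regulators of mitochondrial biogenesis ESRRA alone was called (-0.82 ± 0.15). Of 17 class I antigen presentation genes 1 fell, with 2 called without young 20% replicate 1 and 3 without young 3% replicate 3, and of 20 ribosomal protein genes 1 fell. Called shares were 24.0% for clustered histone genes and 23.8% for sirtuins and ageing regulators, against 11.8% of all genes. They were 18.8% for telomere, 7.69% for mitochondrial biogenesis, 5.88% for class I and 5.0% for ribosomal protein genes.

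Called shares were 7.14% for epithelial, 0.0% for endothelial, 0.0% for immune and 11.1% for mesothelial and neural markers, against 11.8% of all genes. In lists this short that share would itself give few calls. Of 12 endothelial and 13 immune markers 0 were called, and of 14 epithelial markers 1, KRT19, was lower (-0.91 ± 0.18). KRT19 was also the 1 called gene among 9 mesothelial and neural markers. The mean over the immune markers lay between -0.03 and 0.04 on the young 20% arrays and at 0.01 on each young 3% array. The epithelial mean ran from -0.09 to 0.12 and from -0.21 to 0.02, and the endothelial mean from -0.10 to 0.11 and from -0.07 to 0.02. Of 11 pericyte and smooth muscle markers 3 rose and 2 fell (45.5% called, against 11.8% of all genes). Of 14 general fibroblast markers 5 fell and 3 rose, S100A4 among the rises (0.76 ± 0.14), which makes 57.1% called. These 14 ran from -1.50 to 1.23, with a median of -0.10. Among 21 lung fibroblast identity genes 1 rose, 2 fell and 18 were not called, 14.3% called against 11.8% of all genes. The mesenchymal factor TCF21 rose (0.70 ± 0.15), and TBX2 (-0.75 ± 0.15, probe sets from -1.15 to -0.31) and FOXF1 (-0.40 ± 0.08) fell.

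Oxygen was also compared in late cultures (old cells at 3% against senescent cells at 20%), a pair that shares no array with the young pair but shares its estimate of spread and the centring, and in which oxygen and senescence go together. There 2176 genes (11%) were called, 1304 (6.59%) higher and 872 (4.41%) lower. Of the young calls 813 were called in the same direction in this late pair, 34.8% of the young and 37.4% of the late calls. The share was 50.3% of the young rises and 23.7% of the young falls. A further 152 genes were called in opposite directions. The difference between the 2 oxygen comparisons was itself called for 1273 genes (6.44%), and for 777 of the young calls (33.3%).

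The cell-cycle genes were of the shared kind. Of the 134 higher in young cells 124 were also higher in the late pair, against 493 of all 980 risen genes. A called difference was found for 13 of the 134, against 237 of the 980. Among the 189 it was found for 16, where 6.44% of all genes had one. In the mitosis list 52 of the 53 risen genes had all 6 arrays at 3% oxygen above all 6 at 20%, an order seen in 3.57% of all genes and in 53.3% of all 980 risen genes. The reverse order held for 2.54% of all genes. HMMR rose by 2.78 ± 0.13 in the late pair (difference -0.07, adjusted p = 0.872) and MKI67 by 1.68 ± 0.14 (difference -0.04, adjusted p = 0.933). NDC80 rose more in the late pair, by 3.54 ± 0.16 (difference -0.85, adjusted p = 0.0487). With the replicate number as a replicate block over all groups, limma gave NDC80 an adjusted p of 0.0667 for this difference. LMNB1 also rose more there, by 2.45 ± 0.12 (difference -0.73, adjusted p = 0.0231), as did EZH2, by 2.40 ± 0.13 (difference -0.92, adjusted p = 0.0106).

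The HIF targets and glycolytic genes were not. Of the 43 that rose in young cells, 4 were also higher in the late pair and 32 had a called difference. Among the 24 risen HIF targets 23, and among the 19 risen glycolytic genes 15, had the 3 young 20% arrays below all 9 others, an order that 3.69% of all genes and 45.5% of all risen genes showed. The 3 arrays lay above all 9 others in 6.37% of all genes. The mean over the HIF targets was -0.60, -0.59 and -0.66 on the young 20% arrays, 0.03, 0.04 and 0.08 on the young 3% arrays, 0.17, 0.22 and 0.12 on the senescent 20% arrays and 0.16, 0.06 and -0.01 on the old 3% arrays. The young 20% cultures therefore stood alone, below the other culture at 20% oxygen as well as below both at 3%. ENO2 was lower at 3% in the late pair (-0.70 ± 0.11), so the difference between the comparisons was 2.75 (adjusted p = 7.50e-07). BNIP3 (-0.49 ± 0.10 in the late pair, difference 2.57, adjusted p = 4.97e-07) and MXI1 (-0.60 ± 0.09, difference 2.58, adjusted p = 3.05e-07) did likewise, and NDRG1 was not called there (0.32 ± 0.10, difference 2.11, adjusted p = 3.38e-06). DDIT4 rose in both pairs, by less in the late one (0.82 ± 0.15, difference 1.84, adjusted p = 0.000194). EGLN3, not called in young cells, rose by 1.15 ± 0.15 in the late pair, and the difference was not called (-0.76, adjusted p = 0.057; 0.0445 with a replicate block within the late pair).

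**Figure D4:**
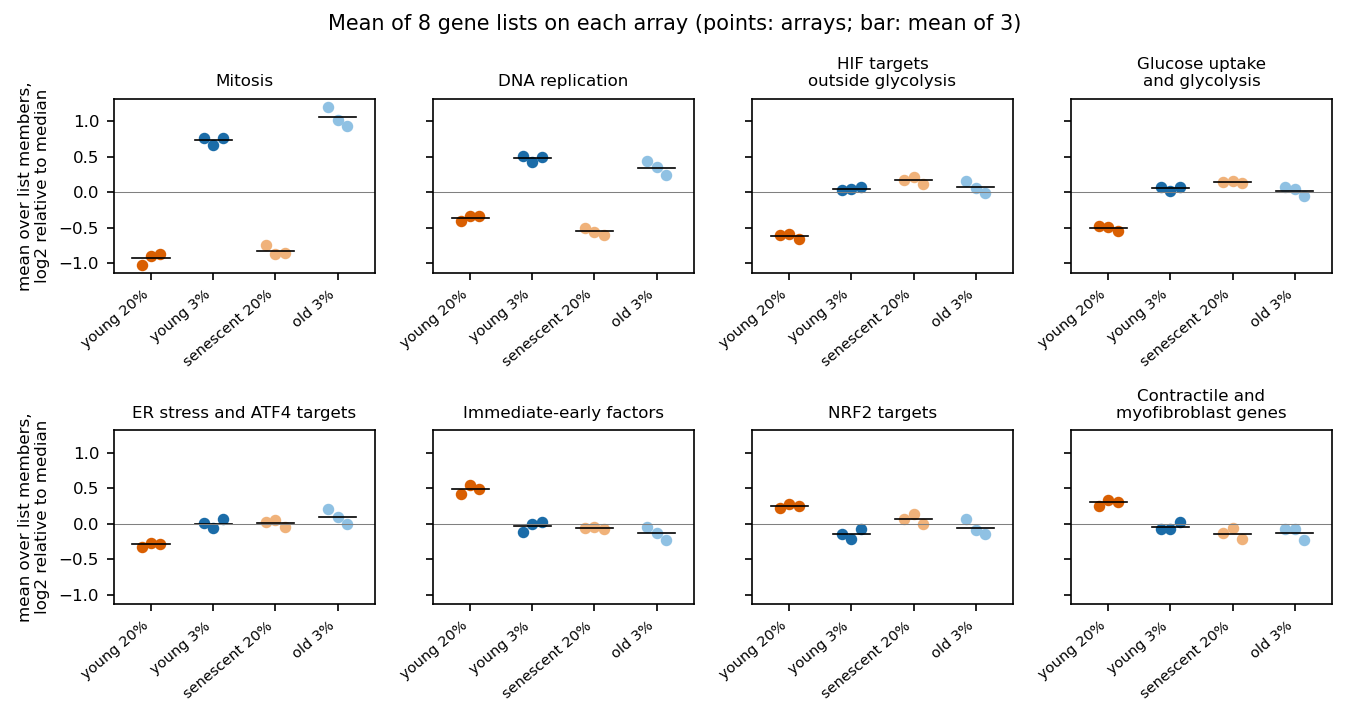
Mean over the measured members of 8 gene lists on each array (vertical axis, log2 relative to the median of 12 arrays), with 1 point per array and a bar for the mean of 3. Mitosis and DNA replication follow the oxygen level in both pairs of groups, whereas HIF targets and glycolysis are low, and immediate-early genes high, on the 3 young 20% arrays alone.

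In several other lists the young 20% arrays likewise stood at 1 end. All 15 risen ATF4 and ER stress genes had the young 20% arrays lowest of the 12, as did all 6 risen collagen-modifying enzymes, and 13 of the 14 fallen immediate-early genes and all 12 fallen inflammatory genes had them highest. Over all genes this held for 446 (45.5%) of the 980 risen and 867 (64.1%) of the 1353 fallen. The late pair was not always without an oxygen difference. All 6 arrays at 3% lay apart from all 6 at 20% in 5 of the 15 ATF4 rises. The same held for 4 of the 14 immediate-early and 5 of the 12 inflammatory falls. It held for 4 of the 43 HIF and glycolysis rises, for 53.3% of all rises and for 26.8% of all falls. PSAT1 was not called in the late pair (0.25 ± 0.12, difference 1.12, adjusted p = 0.00123), and LOX was lower there (-0.49 ± 0.11, difference 1.72, adjusted p = 3.41e-05). TNC was not called in the late pair (0.00 ± 0.14, difference -1.98, adjusted p = 5.43e-05), nor was RARRES2 (0.15 ± 0.18, difference -3.49, adjusted p = 4.17e-06). These orders were described after the values were seen.

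Some changes were called in opposite directions. SHISA3, an antagonist of Wnt and FGF signalling, fell in young cells and rose by 2.36 ± 0.21 in the late pair, the largest difference of all (-5.26, adjusted p = 7.50e-07). It read 2.29, 2.85 and 2.32 in young 20%, -0.20, -0.43 and -0.61 in young 3%, -2.07, -2.20 and -1.43 in senescent 20% and 0.70, 0.48 and 0.20 in old 3% cells. WNT2 (2.24 ± 0.19 in the late pair, difference -4.27), TRPA1 (1.30 ± 0.13, difference -4.25), FOS (0.99 ± 0.20, difference -3.73) and CXCL8 (1.91 ± 0.11, difference -3.13) turned the same way. SERPINB7 turned the other way, rising in young cells and lower by 1.11 ± 0.14 at 3% in the late pair (difference 3.68, adjusted p = 4.97e-07). CDKN1A, not called in young cells, fell by 1.67 ± 0.11 in the late pair, from 1.64, 1.73 and 1.75 in senescent cells to 0.22, 0.02 and -0.12 (difference 1.39, adjusted p = 0.000161). IL6, likewise not called in young cells, rose there by 1.32 ± 0.12 (difference -1.57, adjusted p = 0.000142).

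Others fell or rose in both pairs. VCAM1 fell by 4.08 ± 0.13 in the late pair and CCL2 by 3.11 ± 0.24, with differences that were not called (0.68, adjusted p = 0.0508, and 0.35, adjusted p = 0.631). PTX3 fell by 2.50 ± 0.12 there, less than in young cells (difference -1.02, adjusted p = 0.00354). MSMO1 (-1.83 ± 0.11), CCND2 (-1.49 ± 0.15), CDKN2B (-1.15 ± 0.10) and IGFBP5 (-1.46 ± 0.14) repeated their falls with no called difference. LINC01116 rose by 5.46 ± 0.14, from -3.03, -2.93 and -3.04 in senescent to 2.46, 2.29 and 2.62 in old cells, more than in young cells (difference -0.94, adjusted p = 0.012), and PTGS2 by 4.01 ± 0.19 (difference -2.03, adjusted p = 0.000657).

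**Figure D5:**
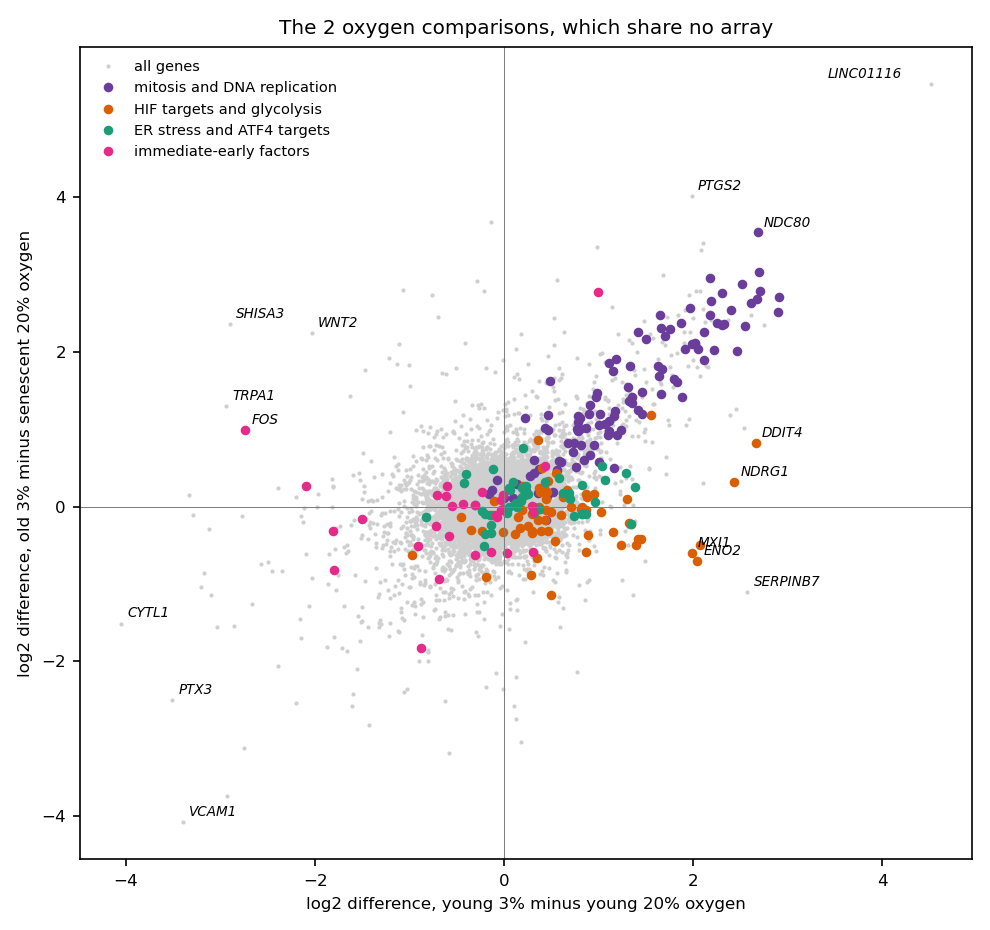
Log2 difference between 3% and 20% oxygen in young cells (horizontal axis) and in old against senescent cells (vertical axis) for all 19775 genes (grey) and 4 groups of listed genes (colours), with 15 genes named. Mitosis and DNA replication genes run along the diagonal, while HIF targets and glycolysis genes extend to the right at little height; DDIT4 lies at 2.66 and 0.82.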

How the data were processed

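RNA from the 12 cultures was hybridised to Affymetrix arrays. The authors deposited log2 expression values, and the submitters' processing notes name RMA, a method whose values are on the log2 scale; the base is otherwise not given in the sources used here. The deposited values are centred, with each probe set's median over the 12 arrays at 0 (tolerance 1e-06), so levels cannot be compared between genes. No value was missing. Of 54675 probe sets, 41091 name 1 gene, 1801 several, 11721 none and 62 are controls. Gene names come from the platform annotation and were updated through Entrez identifiers for 41037 of the 41091. Probe sets naming 1 gene were averaged, giving 19775 genes.

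All 4 groups were fitted together with limma 3.58.1 in R 4.3.3, with empirical Bayes variances and Benjamini-Hochberg adjustment over all genes. The contrasts were young 3% minus young 20% oxygen, old 3% minus senescent 20%, and the difference between them. The procedure was tested on simulated data. The deviations of same-numbered young arrays correlated at 0.223, -0.209 and 0.43. Those of differently numbered young arrays ran from -0.516 to 0.427. In the late pair same-numbered arrays correlated at 0.129, 0.519 and 0.669, all over 0.1. Differently numbered late arrays also passed 0.1, at 0.37 (senescent replicate 2 with old replicate 1) and 0.116 (senescent replicate 1 with old replicate 3). This check therefore can neither establish nor exclude a pairing in either pair of groups. The labels state none, and the main fit used none. A fit with a replicate block within the late pair was added after the data were seen. Genes and gene lists were chosen with earlier results of these data known. Named genes are the 20 largest rises and falls without overlap, up to 6 called members of each list with others needed to describe it, a panel of marker genes, and the leading genes of the comparison with the late pair. Motifs were searched in RefSeq promoter sequence. No depth applies to arrays, and 3 per group limit the precision. Alternatives were other variance models, probe set choices, scalings, array weights, a replicate block, a 3′ to 5′ covariate, thresholds and leaving out each array.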

Additional observations from a re-analysis of the deposited data

Results flagged for a closer look

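The oxygen difference in young cells differed from that between old and senescent cells for the following genes, by limma's test of the difference itself. Each value is the young minus the late log2 difference between 3% and 20% oxygen. Among genes higher at 3% in young cells it was 3.68 for SERPINB7, 2.75 for ENO2, 2.58 for MXI1, 2.57 for BNIP3, 2.11 for NDRG1, 1.84 for DDIT4, 1.72 for LOX and 1.12 for PSAT1. Genes that rose in both pairs and more in the late one had -0.73 for LMNB1, -0.85 for NDC80, -0.92 for EZH2, -0.94 for LINC01116 and -2.03 for PTGS2. In the whole mitosis list the difference was called for 7 of 59 genes. Among genes lower at 3% in young cells it was -5.26 for SHISA3, -4.27 for WNT2, -4.25 for TRPA1, -3.73 for FOS, -3.49 for RARRES2, -3.13 for CXCL8, -1.98 for TNC and -1.02 for PTX3. CDKN1A (1.39) and IL6 (-1.57) were not called in young cells and were called in the late pair.

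Outside the named genes, 275 of 11721 probe sets that name no gene were called between young cells at 3% and 20% oxygen, 112 higher and 163 lower. At least a 2-fold difference was reached by 108 of them, and they ran from -4.49 to 3.69 on the log2 scale.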

How the results depend on the processing

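Counts of called genes were within 1.5 times the reported ones in young cells (1975 to 3193) under another variance model, the most variable or every probe set, renewed scaling, a 3′ to 5′ covariate, a fit of the young groups alone and removal of flat genes; with array weights the count was 3442. Leaving out each array in turn gave 1626 to 2089 genes in young cells, 1607 to 2004 in the late pair and 858 to 1411 for the difference between them. Array weights raised the late count to 4137 and that of the difference to 2684, and counting genes by any called probe set raised the latter to 1936; the cause was not tested. Stricter thresholds left fewer genes by construction: 1412, 1305 and 624 at an adjusted p under 0.01, and 459, 470 and 452 with a log2 change of at least 1. With the replicate number as a replicate block over all groups the counts were 2182, 2028 and 1125. With the replicate block within the late pair alone, added after the data were seen, they were 2370 in the late pair and 1497 for the difference, and of the late and difference calls printed above only that of EGLN3 changed. Of 161 genes named and called in young cells, 158 kept the call under all other settings, thresholds aside, and 0 reversed. Of 17 named genes that were not called, 4 (CDKN1A, EPAS1, HIF1A and VEGFA) were called under at least 1 of these settings. Of 46 lists 30 kept their count of calls within 1.5 times in all of them. The number of arrays, 3 per group, limits what small differences can be called.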
